A study of Brassica napus with 6 samples.

Results

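The miR390, miR391 and miR393 families were followed in shoot apices of Brassica napus (oilseed rape) through all rows of the small RNA files and all degradome records that carry one of these 3 family numbers. They made up 4 of the 401 miRNAs listed in each small RNA file, namely bna-miR390a-c, bna-miR391, bna-miR393a and bna-miR393b, and 4 of the 74 known ones. In the degradome, which captures the 5′ ends of cleaved transcripts, they made up 10 of 535 records of the normal library and 16 of 554 records of the rod-like library. The name bna-miR390a-c stands for several loci that the authors counted together. Normal and so-called rod-like plants were compared, both from 1 experimental field and both taken at early bolting at an age of 3 months. The labels name no cultivar, allele or treatment for either form, and they call the tissue shoot apex or shoot apical meristem. RNA of 6 plants was pooled for each sample, and each plant type has 2 small RNA files and 1 degradome library. The titles number the small RNA files of each plant type 1 and 2, but the rod-like degradome 3, and they give the normal degradome no number. The counts and the listed targets are therefore not shown to come from the same pools of plants.

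Of these families, miR390 and miR393 act on the auxin pathway, miR390 by way of other small RNAs. In Arabidopsis, miR390 is loaded into AGO7 and starts the production of trans-acting siRNAs from TAS3 transcripts, which in turn restrain ARF3 and ARF4, auxin response factors of organ polarity and lateral growth. There, miR391 is counted as a relative of miR390, and miR393 guides cleavage of transcripts of the TIR1 and AFB auxin receptors and so sets how strongly cells respond to auxin.

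The mature sequences that the degradome records give for the miR390 and miR393 names are shown first, because every target site below is read against them. Capitals mark the seed, bases 2 to 8 from the 5′ end, and T is written for U as in the records.
ath-miR393a-5p: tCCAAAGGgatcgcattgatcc
bra-miR390-5p: aAGCTCAGgagggatagcgcc
The miR393 sequence has 22 bases and the miR390 sequence 21. None of the 215 other miRNA names with a sequence in the records shared either seed. No record carried the name miR391, so its sequence is not given. The records use names of other species (ath for Arabidopsis, bra for Brassica rapa), and whether the counted bna miRNAs have the same sequence was not tested.

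Before the comparisons, the 2 files of each plant type were set against each other. Over miRNAs with at least 10 summed counts they differed by no more than sampling noise, with chi-square per degree of freedom at 0.885 for the normal pair (p = 0.952) and 1.05 for the rod-like pair (p = 0.246), and they were counted as 1 sample. Each plant type therefore has n = 1, tests on the 4 files compare these libraries and not the plant types, and intervals cover counting error only. Summed counts ran from 625795 to 713637 per file over the listed miRNAs, which is not the depth of the libraries.

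The 4 miRNAs spanned about 3 orders of magnitude, which the log-axis plot of abundance by file shows. Values are reads per 1000000 listed miRNA reads, scaled by edgeR's TMM factors (RPM). Normal files had 11936 and 11598 RPM of miR390a-c, against 10131 and 10164 RPM for rod-like. It was the highest of the 4 in every file. It was 8th most counted of the 74 known miRNAs in both normal files and 9th in both rod-like files. For miR391 the normal files had 3742 and 3718 RPM, against 6135 and 6166 RPM for rod-like. Here the rod-like files were the higher ones, and the rank among known miRNAs was 14 in normal and 13 in rod-like files.

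Both miR393 members were near the lower end of the known miRNAs. Normal files held 16 and 21 counts of miR393b, and rod-like files 13 and 23, so the plant types overlapped. For miR393a the counts were 5 and 8 against 6 and 7, which also overlapped. Ranks were 54 to 61 for miR393b and 64 to 69 for miR393a. Summed, the 2 members gave 21 and 29 counts for normal plants, against 19 and 30 for rod-like plants. Counts of miR390a-c were 236 to 372 times those of miR393 in the same file.

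**Figure D1:**
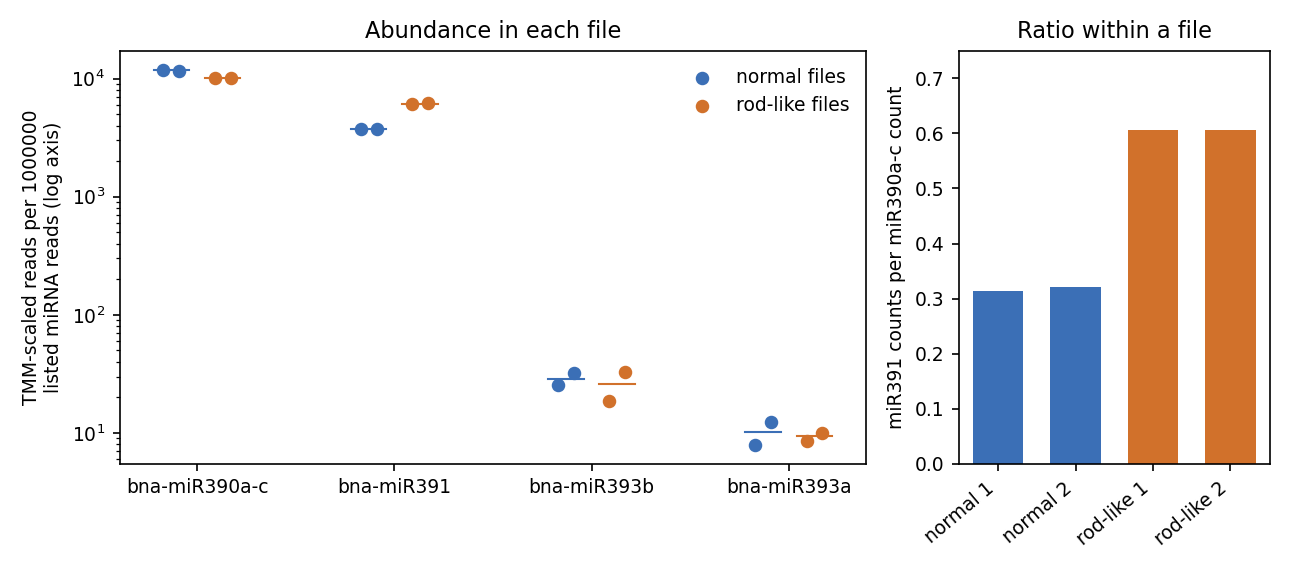
Left, TMM-scaled reads per 1000000 listed miRNA reads (log axis) for the 4 miRNAs, with 1 point per file and a line at the mean of the 2 files of a plant type; right, miR391 counts per miR390a-c count in each file. The rod-like files sit below the normal files for miR390a-c and above them for miR391, the miR393 files overlap, and the ratio is 0.313 and 0.321 in normal against 0.606 and 0.607 in rod-like files.

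Between the libraries, miR390a-c was lower and miR391 was higher in rod-like apices, and a difference in miR393 was not detectable at this depth. The rod-like to normal ratio of miR390a-c was 0.862 (exact 95% counting interval 0.835 to 0.891), a log2 fold change of -0.21. It passed edgeR's quasi-likelihood test on the 4 files with a Benjamini-Hochberg adjusted p of 1.06e-14. The ratio of miR391 was 1.65 (1.57 to 1.73), a log2 fold change of 0.72 with an adjusted p of 5.37e-49 in the same edgeR test. The ratio of miR393b was 0.897 (0.442 to 1.82) and did not pass (edgeR adjusted p = 0.823). For miR393a, which fell under the low-count filter and was not tested, the ratio was 0.922 (0.262 to 3.25). The 2 miR393 members summed gave a ratio of 0.904 (0.496 to 1.64), an interval that leaves room for changes of either direction.

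Of the 4 members, 3 were tested, with 1 called higher, 1 called lower and 1 not called. Over all miRNAs tested, 16.6% were called higher for rod-like apices and 11.5% lower, and among the 65 known miRNAs tested the shares were 52.3% and 16.9%, or 34 higher and 11 lower. Fitted alone, the same 65 split into 22 higher and 23 lower. With most known miRNAs called in these libraries, a call alone sets neither miR390a-c nor miR391 apart. By size of fold change, miR391 was 18th from the highest and miR390a-c 13th from the lowest of the 65 known miRNAs tested.

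The ratio of miR391 to miR390a-c is taken within a library and so does not depend on how libraries are scaled. Normal files held 0.313 and 0.321 miR391 counts for each miR390a-c count, and rod-like files 0.606 and 0.607. In the rod-like sample this ratio was 1.91-fold that of the normal sample (exact conditional 95% interval 1.80 to 2.03, two-sided Fisher's exact test on mean counts, p = 4.67e-103). Leaving out any 1 file gave 1.89 to 1.93. Counted together, the 2 miRNAs took nearly the same part of the listed reads in every file, with 15889 and 15834 unscaled reads per 1000000 listed reads of normal files and 15930 and 15910 of rod-like files. Within that sum, the part of miR391 was 23.9% and 24.3% for normal files, against 37.7% and 37.8% for rod-like files. The sum is close to even only when scaled by the total of listed counts, with a ratio of 1.00. With TMM scaling the ratio of the sum was 1.05 (1.02 to 1.08).

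The direction of both miRNAs was the same in each of the 10 other settings tried, while the size depended on one of them. When only known miRNAs were fitted, which moved the median log2 fold change by -0.50, miR390a-c lay at -0.71 and miR391 at 0.23. Predicted miRNAs held 8.20% and 8.25% of the counts of normal files, against 13.6% and 13.7% for rod-like. Scaled by the total of known counts alone, the rod-like to normal ratios were 0.875 for miR390a-c and 1.67 for miR391. With TMM scaling over all miRNAs they were 0.862 and 1.65. With TMM scaling over all miRNAs, the median log2 fold change was 0.41 over the known miRNAs and -0.01 over all miRNAs tested. The cause of the shift in the fit on known miRNAs was not tested. For miR393b the sign depended on a single file, with 0.06 without normal replicate 2 and 0.20 without rod-like replicate 1, and none of these values passed.

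**Figure D2:**
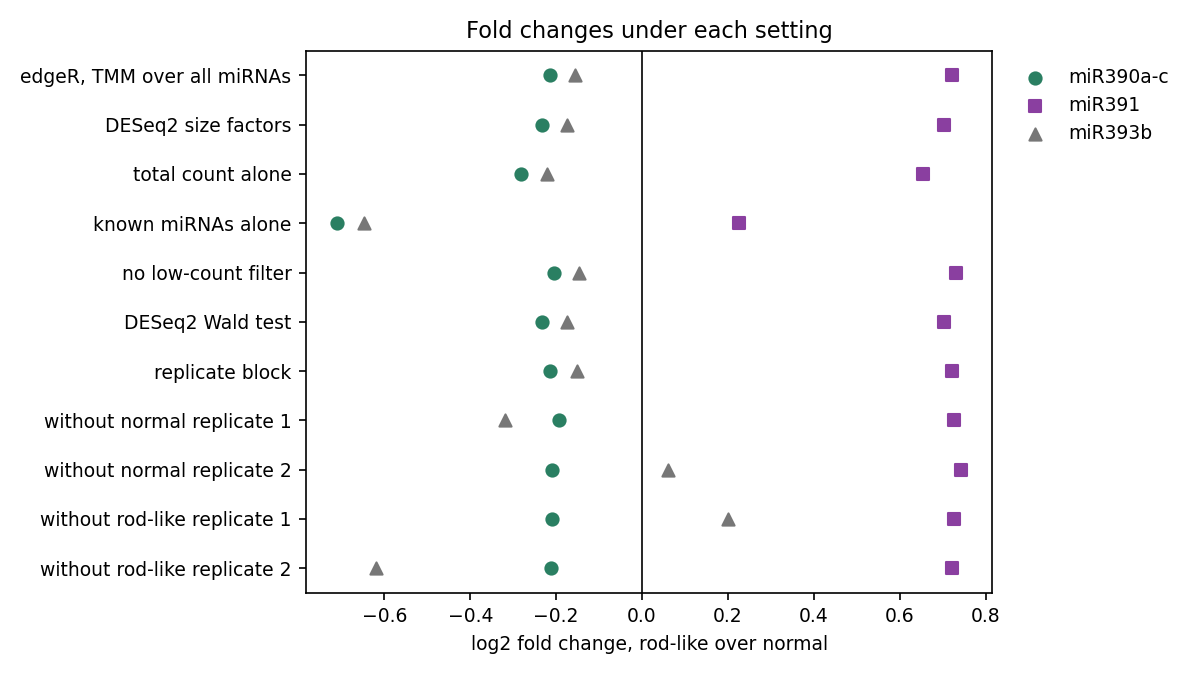
The log2 fold change of rod-like over normal (x axis) for miR390a-c, miR391 and miR393b under each setting (y axis), with the fit on TMM scaling over all miRNAs at the top. The points of miR390a-c stay below 0 and those of miR391 above 0 in every setting, from -0.71 to -0.19 and from 0.23 to 0.74, while those of miR393b fall on both sides.

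Other known miRNAs with a mean of at least 100 counts per file shared the size of these differences. Nearest to miR390a-c in log2 ratio were miR160f at -0.29, which targets auxin response factors, miR166f at -0.10, which acts on HD-ZIP III transcripts, and miR169n at -0.33, which targets NF-YA factors. Nearest to miR391 at 0.72 were miR399d at 0.71, a phosphate starvation miRNA, miR1140 at 0.75 and miR171h at 0.76, which targets GRAS factors of the HAM group. In level, miR167a-c was nearest to miR390a-c, with 11216 RPM in normal and 15864 RPM in rod-like samples, and so went from below to above it. Nearest in level to miR391 were miR167e, with 4604 and 4791 RPM, and miR164b-d, with 3769 and 6754 RPM. These likenesses rest on 2 pooled values for each miRNA.

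Of 9 listed members of the miR160, miR167, miR390 and miR393 families, 8 were tested, and 3 were higher, 2 lower and 3 not called, against 16.6% higher and 11.5% lower over all miRNAs tested and 52.3% and 16.9% over the known ones. When only known miRNAs were fitted, 0 were higher and 5 lower, so the higher calls depended on which miRNAs were fitted. The median log2 fold change was 0.10, beside -0.01 over all miRNAs tested and 0.41 over the known ones. The lower members were miR390a-c and miR160f, with a ratio of 0.815 (0.764 to 0.870). Among the higher ones with TMM scaling over all miRNAs, miR167a-c, which targets ARF6 and ARF8, had a ratio of 1.41 (1.37 to 1.46) and miR167d of 1.48 (1.06 to 2.08). The third, miR160e, had a ratio of 1.10 (1.02 to 1.19). The count of calls was 3, 1 higher and 2 lower, without normal replicate 1 and also without rod-like replicate 2.

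Among miRNAs known to start secondary siRNA production in Arabidopsis, or to target the AGO1 transcript of that pathway, 5 were listed and 4 tested. None was higher, 2 were lower and 2 were not called, beside the 16.6% higher and 11.5% lower over all miRNAs tested (52.3% and 16.9% of the known ones), with a median log2 fold change of -0.18. Without rod-like replicate 1 the count was 1 higher and 2 lower. The lower ones were miR390a-c and miR168a, which was included as it targets AGO1 and not as a starter. The ratio of miR168a was 0.741 (0.736 to 0.746). The ratio of miR161, whose Arabidopsis form acts on PPR transcripts, was 1.30 (0.938 to 1.81), and it did not pass (edgeR adjusted p = 0.068). The count describes these 4 miRNAs only.

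In the degradome, miR393 had the most listed targets of the 3 families, and miR390 and miR391 had few or none. A record pairs a miRNA name with a transcript and gives the cleavage position in bases along it, an alignment score, a category and a P-value. The score equalled 1 for each mismatch or gap plus 0.5 for each G:U wobble in all 318 normal and 307 rod-like records of named miRNAs, so a lower score is a closer match. The categories run from 0 to 3, and 0 was taken as the strongest evidence, which the sources used here do not define. The normal library listed 10 target transcripts of miR393 and the rod-like library 14, and all 24 records were in category 0. Among other named miRNAs, category 0 held 75.6% of normal and 89.7% of rod-like records.

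The miR393 targets fell into 5 kinds of site, shown here because the kinds differ in which library listed them. Sites run 5′ to 3′ on the transcript, and capitals mark transcript bases outside a Watson-Crick pair with ath-miR393a-5p.
miR393 site 1: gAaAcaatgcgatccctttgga
miR393 site 2: AgaAcaatgcgatccctttgga
miR393 site 3: AgacaatgcgatcTctttgga
miR393 site 4: gAaAcCatgcgatccctttgga
miR393 site 5: ggGtcaGagcgatccctttggC
Counted from the miRNA's 5′ end, bases 2 to 7, 9 to 14, 16 and 18 were paired in all 5 sites, which includes bases 10 and 11, between which plant miRNAs usually guide the cut. Base 19 was paired in 1 site only, site 5. Sites 1 and 2 had a score of 2, with mismatches at bases 19 and 21 and at 19 and 22. Site 4, with a score of 3, had the mismatches of site 1 and another at base 17. Site 3 had a score of 2.5, with a wobble pair at base 8, no transcript base facing base 19 and a mismatch at base 22. Site 5 had a score of 3.5, with a mismatch at base 1, no transcript base facing base 15, an extra transcript base after base 16 and a wobble at base 20.

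**Figure D3:**
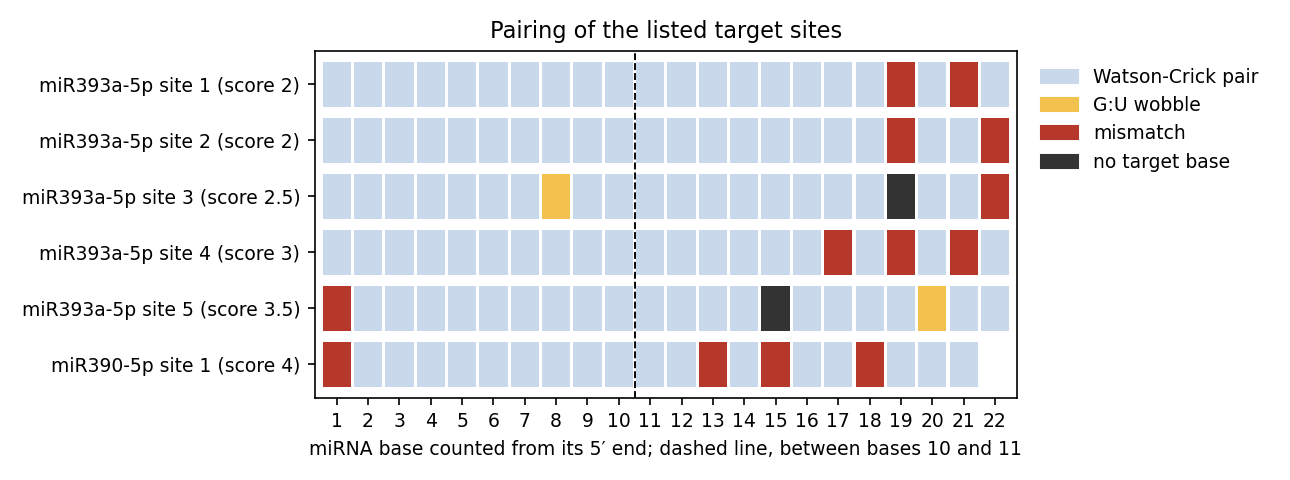
Pairing of each kind of listed site (rows, with the alignment score) at each miRNA base (x axis, from the 5′ end), as Watson-Crick pair, wobble, mismatch or no facing base. In the miR393 sites the departures lie at base 1, base 8 and bases 15 to 22, and the miR390 site has mismatches at bases 1, 13, 15 and 18.

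Site 1 was listed on 4 transcripts in both libraries, BnaA02g28290D and BnaC02g36370D at position 1563, BnaA08g24570D at position 1608 and BnaC08g15770D at position 1593. Site 2 was listed on 2 transcripts in both, BnaC08g29060D and BnaC08g40890D, each at position 1569. Site 4 was also on 2 transcripts in both, BnaA09g01370D at position 1728 and BnaC09g00530D at position 1689. Site 5 was on BnaC07g07840D alone, at position 95, in both libraries. These 9 transcripts were thus listed in both plant types, each at 1 position.

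Site 3 differed between the libraries. BnaC06g43000D was listed at position 1578 in both. The other 4 transcripts with this site were listed in the rod-like library alone, BnaA09g40340D, BnaC08g32660D and BnaCnng60850D at position 1578 and BnaA07g19520D at position 1731. All 5 records in the rod-like library and the 1 in the normal library were in category 0, with a score of 2.5. The 4 transcripts that were listed in the rod-like library alone are all the miR393 targets not shared, so the other 10 targets were common to both. For comparison, 18.8% of the category 0 pairs of other named miRNAs were listed in the rod-like library alone and 72.1% in both, beside 28.6% and 71.4% of the 14 miR393 pairs. With names of a family merged, a comparison added after the data were seen, the shares for the other named families were 15.3% and 74.1%.

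The site 3 transcripts share their 21-base site, so they are not independent of each other. In sites 1, 2 and 4 the transcript bases facing miRNA bases 1 to 10 were identical, and those of sites 3 and 5 each differed from them. Whether 1 sequenced tag could be assigned to several transcripts is not given in the sources used here. Of 14 other groups of at least 5 transcripts that share a site under 1 named miRNA, 7 had the same transcripts listed in both libraries. Under the name bra-miR172c-3p, 4 transcripts were in the rod-like library alone, and under ahy-miR156c 18 were in the normal library alone, but all of these were listed in the other library under another name of the family. Counted over all names of a family, none of the 14 groups had 4 or more transcripts in either library alone, and the most in the rod-like library alone was 2. The limits of 5 and 4 transcripts are the values of site 3 itself, and this comparison was not planned. Merging names could not lower the count of site 3, as miR393 was listed under 1 name. Several groups also hold the same transcripts under different names of a family. The comparison therefore does not show that site 3 is exceptional. Because the records used here hold no tag counts, a transcript not listed in a library is not shown to be uncleaved there, and with 1 library per plant type no test was made.

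**Figure D4:**
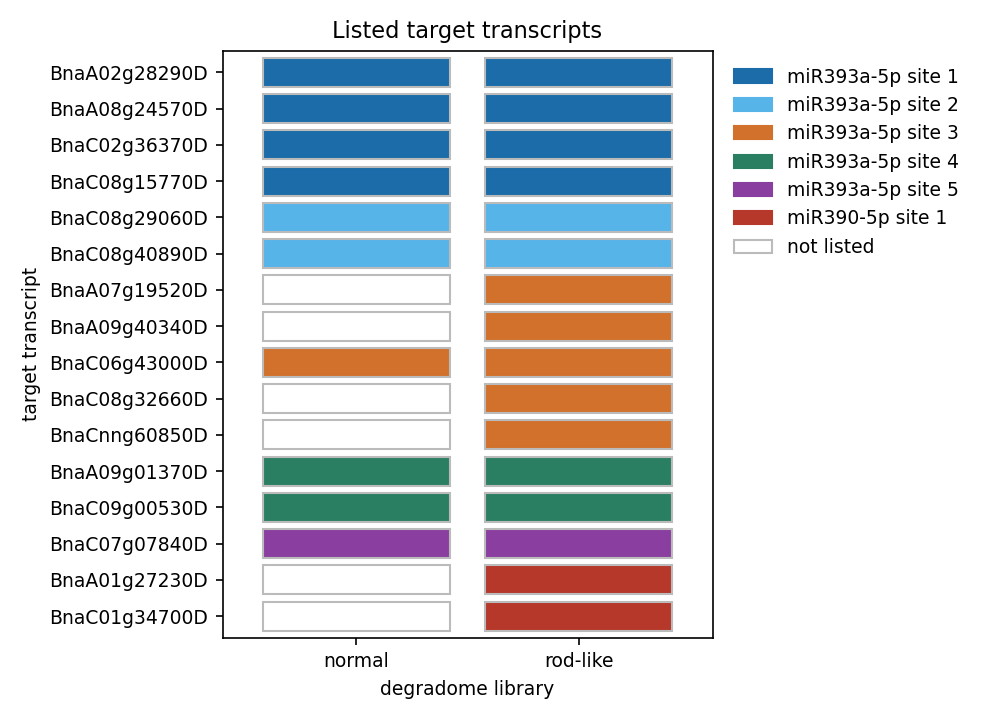
Target transcripts (rows) listed in the normal and rod-like degradome libraries (columns), coloured by the kind of site, with white for not listed. Of the 5 transcripts of site 3, 4 are listed in the rod-like library alone, as are the 2 of miR390, and the other 10 are listed in both.

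The miR390 name had 2 records, both in the rod-like library, on BnaA01g27230D and BnaC01g34700D, each at position 77. The site is shown with capitals for transcript bases that do not pair with bra-miR390-5p.
miR390 site: ggcTctTtGcctcctgagctC
Mismatches lay at miRNA bases 1, 13, 15 and 18, and bases 2 to 12 were paired without a break. Its score of 4 was higher than that of any miR393 site, its category was 1, and the target caller's P-value was 0.028 for both records. The normal library listed no miR390 record among 535. No record in either library carried miR391, which had a mean of 2395.5 counts per normal file and 4283 per rod-like file. TAS3, the known miR390 target, is a non-coding transcript, and whether it was part of the transcripts searched is not given in the sources used here.

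Abundance and listed targets did not go together for these families, as the plot of counts against targets shows. Of 24 families, namely miR391 and those with both counts and a degradome record, miR390 was 5th by mean count in normal and 6th in rod-like libraries and had no target in category 0. Other counted families without a record were left out, so these are not ranks among all counted families. Among those left out, miR158a had 112011 and 112094 counts in normal files, and miR167a-c had 11055 and 11040 in rod-like files. High counts without a target in category 0 are thus not particular to miR390 and miR391. Family miR393 was 21st and 22nd by count, with a mean of 25 and 24.5 counts per file, and had 10 and 14 targets in category 0. By targets in category 0 it ranked 6th of 19 named families for normal and 3rd of 23 for rod-like apices. Families were matched by number across species names, so a counted miRNA and a listed one can differ in sequence. The rod-like degradome also carries another replicate number than the rod-like small RNA files.

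**Figure D5:**
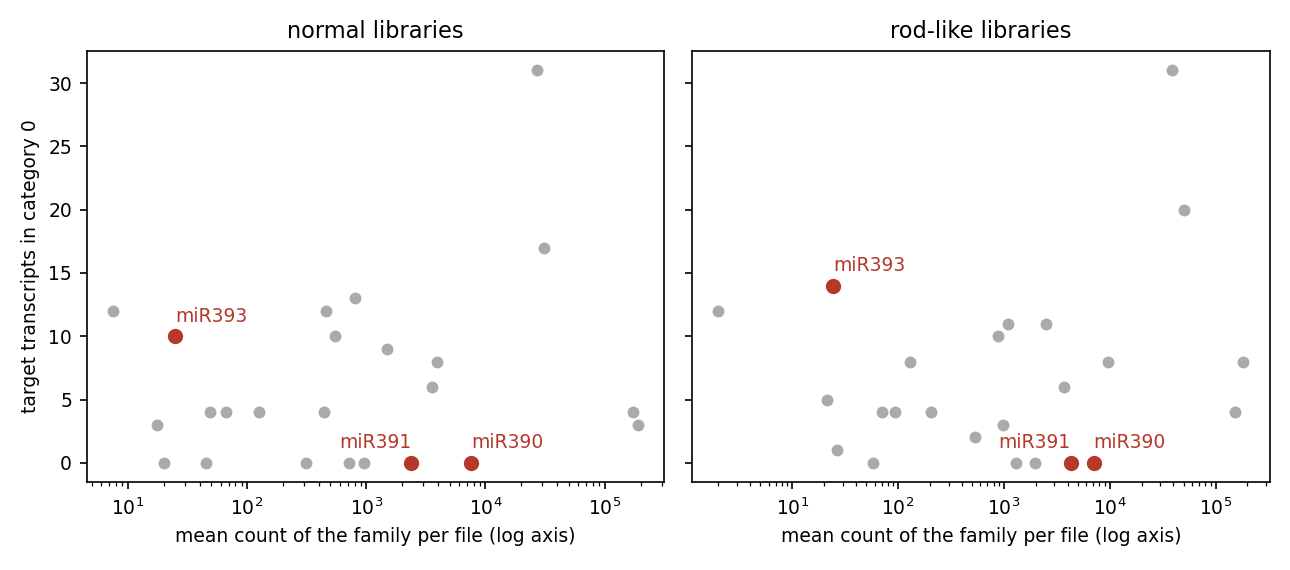
Target transcripts in category 0 (y axis) against the mean count of the family per small RNA file (x axis, log), for 24 families in the normal (left) and rod-like libraries (right). The 24 are miR391 and the families with both counts and a degradome record, and other counted families without a record, such as miR158 and miR167, are not shown. Red points mark miR393, at 10 and 14 targets with 25 and 24.5 counts, and miR390 and miR391, at 0 targets with far higher counts.

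In the libraries that listed them as targets, none of the 16 transcripts carried another miRNA name, at the same or another position. For the 6 transcripts listed in the rod-like library alone, the normal library was not searched. The letter A or C after Bna marks the subgenome in Brassica napus gene identifiers. By that letter, the miR393 targets were 3 of A and 7 of C for normal, and 5 of A and 9 of C for rod-like apices, and miR390 had 1 of each. Of the 16 transcripts, 1 matched the RefSeq gene table of the Da-Ae assembly, BnaA01g27230D, a protein-coding gene without a further name there. No gene names are therefore given to the targets.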

How the data were processed

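Small RNA of 18 to 30 nt from 10 µg of total RNA, and cleaved polyadenylated RNA from about 200 µg, were sequenced, as the labels' protocols state. No genome build, mapper or target caller is named there or in the files. The deposited counts per miRNA are whole numbers without normalization. The degradome files hold a score, category, position and P-value for each pair with its alignment, per the file headers. How reads of near-identical members were counted is not stated.

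Known and predicted miRNAs were fitted together with edgeR 4.0.16 (R 4.3.3, TMM, filterByExpr, robust quasi-likelihood test, Benjamini-Hochberg at 0.05). Because both files of a plant type agree within sampling noise, ratios of mean counts are given with exact conditional 95% intervals. PCR reads are not independent molecules. Alternatives covered scaling, filter, DESeq2 1.42.0, a replicate block, each file left out and the definition of a pair. Python 3.11.15, pandas 2.3.3 and SciPy 1.17.1 were used, and sequences were copied from the deposited alignments.

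The members and lists were chosen with earlier results of these data known. Named are all rows of the 3 families, the 3 known miRNAs nearest to a member in ratio (mean count of at least 100) or in level, of which a few are given, the extremes of the lists, and the target transcripts in category 0 or 1. That rule stops at 12 transcripts, and all 16 are named here.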

Additional observations from a re-analysis of the deposited data

How the results depend on the processing

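The calls of miR390a-c and miR391 kept their direction and passed in all 10 alternatives, with log2 fold changes of -0.19 to -0.21 and 0.72 to 0.74 when each file was left out in turn, and the miR391 to miR390a-c ratio stayed within 1.89 to 1.93. With a replicate block their adjusted p was 0.012 and 0.000456 (edgeR). Same-numbered files deviated together with a correlation of 0.011 over all miRNAs tested. Because the files of a plant type differed by no more than sampling noise, this value cannot show whether the numbers pair the samples. For miR393b the log2 fold change was -0.62 to 0.20 with each file left out, and above 0 without normal replicate 2 (0.06) and without rod-like replicate 1 (0.20), from 13 to 23 counts per file. Over all miRNAs 110 were called, against 45 of 65 (22 higher, 23 lower) when only known ones were fitted, 57 with DESeq2's Wald test, 53 with the replicate block and 71 to 87 with each file left out, 71 (48 higher, 23 lower) without normal replicate 1. The total count alone gave 55 higher and 58 lower, against 65 and 45. The auxin-linked families had 5 calls (3 higher, 2 lower), 5 in the fit on known miRNAs alone (0 higher, 5 lower), 3 with DESeq2's Wald test and with the replicate block, and 3 to 6 with each file left out. The group of siRNA-starting miRNAs and miR168a had 2 lower calls, and also 2 when only known miRNAs were fitted. Other definitions of a degradome pair, categories 0 and 1 alone, or a P-value of 0.05 or less left 10 normal and 16 rod-like pairs, 10 of them shared. The miR390 and miR391 families had 1 row each, so counts summed by family were not a separate value. The causes of the moved counts were not tested, beyond the smaller number of miRNAs in the fit on known ones.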

Other observations

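The target caller's P-values were not a property of the pair alone. The 4 transcripts with miR393 site 1, all with a score of 2 and category 0, had P-values of 0, 0, 0 and 0.004 in the order of the normal file and 0, 0, 0.002 and 0.002 in that of the rod-like file. Within a miRNA name and category, P-values never fell along the file in any of the groups of at least 2 records, 69 for normal and 77 for rod-like, and 10 groups of each library held more than 1 value. No pair was therefore ranked by P-value.

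The cleavage positions of the 13 transcripts with miR393 sites 1 to 4 were all multiples of 3, while that of site 5 and those of miR390 left a remainder of 2. Among positions of other named miRNAs, 49.8% of 241 were multiples of 3. The 13 transcripts share near-identical sites, so they are not independent.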
